A study of Arabidopsis thaliana with 20 samples.

Results

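A set of 9 little-described genes of Arabidopsis thaliana was followed over 20 Affymetrix arrays of myb3r mutants: AT4G01730, AT3G27330, AT5G48310, AT4G14490, AT1G23790, AT2G16270, AT4G28230, AT3G10310 and AT4G15830. They were chosen for their measured values, as being among the largest rises in mature leaves of a mutant. The choice was made among genes that carry a name on the array and were set down as outside the known mitotic families. They are 9 of the 13286 genes for which the array annotation gives a probe set of their own, and each is read by 1 probe set. The gene table used here lists all 9 by locus tag alone, as protein-coding and with no symbol, so no role is given to any of them and their place outside the mitotic families was not checked.

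The leaf arrays hold first leaf pairs of wild type (Columbia) and of plants that lack MYB3R1, MYB3R3 and MYB3R5 (myb3r1 myb3r3 myb3r5, the triple mutant). Each genotype has 2 arrays at 5 d and 3 at 15 d. The seedling arrays hold whole seedlings at 9 d, 1 array for wild type and 1 for each of 9 mutant genotypes. These were the single mutants myb3r1, myb3r3, myb3r4 and myb3r5, the double mutants myb3r1 myb3r4 and myb3r3 myb3r5, the triple mutants myb3r1 myb3r3 myb3r5 and myb3r3 myb3r4 myb3r5, and the quadruple mutant of all 4 genes. All plants were raised on half-strength MS agar with 2% sucrose under continuous light at 22 °C and received no treatment. The labels do not name the mutant alleles, the number of plants in a sample or the origin of the replicates. In leaves, p-values therefore reflect no more than the spread between the arrays, which may be technical. In seedlings, with 1 array per genotype, they reflect what the terms of a fit leave unexplained between genotypes, which can hold effects of genotype. None of the 5 MYB3R genes is read by a named probe set. The mutated transcripts were therefore not checked and genotypes are as labelled.

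MYB3R proteins are MYB transcription factors that bind promoter elements of genes transcribed at the G2/M transition, just before and during mitosis. In Arabidopsis some members of the family are known as activators of these genes and others, among them MYB3R3 and MYB3R5, as repressors. A first leaf is still dividing when it is young, and most of its cells have left the mitotic cycle when it is mature, which is why mature leaves are used to look at genes that are normally shut off with the end of division.

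Signals are in linear array units, and every array had been brought to the same trimmed mean by the submitters. Signals under a floor of 33.1 were set to that floor before log2 was taken, because dim signals have no usable order, and between 21.4% and 35.1% of probe sets lay at or under it on an array. In the 4 photosynthesis genes with a probe set, RCA (Rubisco activase) and the antenna proteins LHCB4.1, LHCB4.2 and LHCB4.3, the summed signal at 15 d was 64648, 37175 and 25355 on the wild-type arrays. On the triple mutant arrays it was 49119 on replicate 1 and only 6584 and 8665 on replicates 2 and 3. Replicate 1 of the 15 d triple mutant thus stood apart from its group, and leaving it out moved the 15 d calls over all probe sets from 124 to 1414. With the replicate number as a block, which pairs the 15 d arrays, the calls were 779, of which 409 were higher in the mutant. Leaving out mutant replicate 1 kept its wild-type partner, the highest of its group at 64648, and leaving out both was not run. The part that mutant replicate 1 has in the results below was not tested. The values of the 9 genes are given with and without mutant replicate 1.

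AT4G01730 had the highest difference of the 9 at 15 d. Its signal was 22.4, 11.1 and 22.2 on the 3 wild-type arrays and 803, 1046 and 1159.7 on the 3 triple mutant arrays. The wild-type arrays all lay under the floor, and the mutant arrays lay at the level of young leaves, so that the difference was at least 30.0-fold (4.90 on the log2 scale). Over 3 arrays each, the mean and SD were 18.6 ± 6.46 for wild type and 1003 ± 182 for the mutant. Without mutant replicate 1 the log2 difference was 5.06. No p-value is given for this or any other 15 d difference of the 9 genes, because the genes were selected on it. In these bulk leaves, more cells that transcribe a gene and more RNA of it per cell cannot be told apart.

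A further 6 genes had the same form, with all 3 wild-type arrays under the floor at 15 d. AT3G27330 read 16.2, 3.58 and 7.09 in wild type and 384, 527 and 607 in the triple mutant, at least 15.0-fold higher (log2 difference 3.91, or 4.10 without mutant replicate 1). AT5G48310 read 29.4, 21.4 and 22.2 in wild type and 357, 508 and 476 in the mutant, at least 13.4-fold higher (3.74, or 3.89 without that array). In both, as in AT4G01730, AT4G14490, AT1G23790 and AT3G10310, replicate 1 was the lowest of the 3 mutant arrays. AT4G14490 read 18.3, 20.9 and 14.7 in wild type and 377, 395 and 435 in the mutant, at least 12.1-fold higher, and had the narrowest relative spread of these 6 among the mutant arrays (402 ± 29.5, SD, n = 3). Its log2 difference was 3.60, or 3.65 without mutant replicate 1. AT1G23790 read 13.6, 15.8 and 18.0 in wild type and 292, 427 and 426 in the mutant, at least 11.4-fold higher (3.51, or 3.69 without that array). In none of these genes did the wild-type and mutant arrays overlap, but nothing is read from this, because the 15 d difference chose the genes.

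AT3G10310 and AT2G16270 were the other two at the floor. AT3G10310 read 19.8, 28.4 and 29.9 in wild type and 274, 374 and 299.8 in the mutant, at least 9.47-fold higher (3.24, or 3.34 without mutant replicate 1). AT2G16270 read 5.66, 7.6 and 9.49 in wild type and 548, 247 and 265 in the mutant, at least 9.97-fold higher. For AT2G16270 mutant replicate 1 lay far above the other 2 mutant arrays, and without it the log2 difference went from 3.32 to 2.95. That array was also the one with the high photosynthesis signals.

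The other two genes kept a measurable signal in mature wild-type leaves. AT4G28230 read 114, 43.3 and 47.3 in wild type and 749.8, 703 and 763 in the triple mutant, a 12.0-fold difference (3.58 on the log2 scale, or 3.57 without mutant replicate 1). Its mutant arrays agreed within a SD of 31.3 around a mean of 739, while the wild-type arrays were spread more widely in proportion (68.2 ± 39.7, SD, n = 3), with replicate 1 on top. AT4G15830 read 52.7, 34.7 and 32.8 in wild type and 443, 238 and 354 in the mutant, an 8.51-fold difference with the third wild-type array set to the floor. Its difference without mutant replicate 1 was 2.89 on the log2 scale against 3.09 with it.

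**Figure D1:**
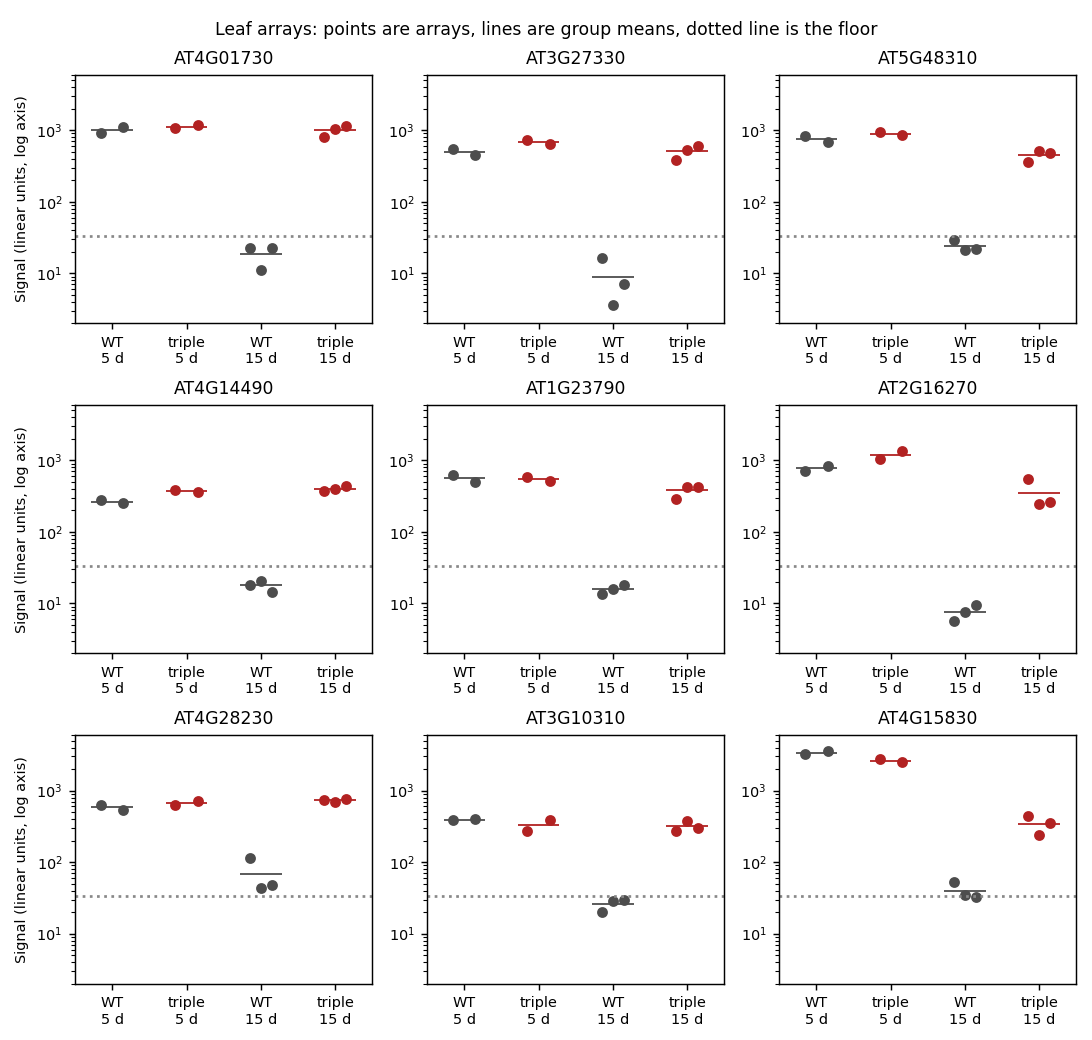
Signal of each of the 9 genes on every leaf array (linear units on a log axis), in wild type (grey) and the myb3r1 myb3r3 myb3r5 triple mutant (red) at 5 d and 15 d; points are arrays, horizontal lines are group means and the dotted line is the floor of 33.1. At 15 d the wild-type arrays of 7 genes all lie under the floor, while every mutant array of the 9 genes lies at 238 or above.

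Across the 9 genes the log2 difference at 15 d ran from 3.09 to 4.90, with a median of 3.58, against a median of 0 over all 16558 probe sets tested. All 9 were among the probe sets called higher in the triple mutant, at an adjusted p under 0.05 in limma, and 0.725% of all probe sets tested were; since this contrast chose the genes, nothing is read from that count. Among named genes with such a call and with arrays that did not overlap between genotypes, of which there were 70, they held ranks 1, 3, 4, 5, 6, 7, 8, 10 and 14. The genes between them were AUR2 (log2 difference 4.28) and AUR1 (3.29), which encode Aurora kinases of mitosis, and AT5G42330 (3.17), AT1G72250 (3.09) and AT1G68110 (3.09). Why AT5G42330 and AT1G68110, which ranked above AT4G15830, were left out of the set is not given. Just below AT4G15830, at 3.09, came AT4G03610 (3.09), 3xHMG-box1 (3.08), a protein with HMG-box DNA-binding domains, and AT3G01410 (3.04). The lower edge of the set is therefore a close one: AT4G03610 read 9.25 ± 7.35 in wild type and 281 ± 5.62 in the mutant (SD, n = 3 each), next to 40.1 ± 11 and 345 ± 103 for AT4G15830.

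The leaf ages set the mature mutant level against the level of the young, dividing leaf. In wild type all 9 genes were far lower at 15 d than at 5 d, by at least 8.03-fold in AT4G14490 and by at least 30.1-fold in AT4G01730. AT4G15830, with 3198 and 3604 on the wild-type arrays at 5 d, was 86.5-fold lower at 15 d. In the triple mutant the 15 d arrays overlapped the 5 d arrays in some genes and lay below them in others. These are descriptions with no test, because the 15 d arrays chose the genes.

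In 4 genes the 15 d and 5 d arrays of the triple mutant overlapped. AT4G28230 read 630.4 and 705 in the mutant at 5 d, and its 15 d mean was 111% of its 5 d mean on the log scale. For AT4G14490, which read 387 and 361 at 5 d, it was 107%. AT3G10310 read 274 and 384 at 5 d and stood at 96.6%. AT4G01730 read 1074 and 1175 at 5 d and stood at 88.3%, or 98.1% without mutant replicate 1 of 15 d. In these genes the mature mutant leaf gave nearly the signal of the young mutant leaf.

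In the other 5 genes every 15 d mutant array lay below both 5 d mutant arrays, as in 36.3% of all probe sets tested in leaves. AT3G27330 stood at 72.8% of its 5 d level (724 and 644 at 5 d) and AT1G23790 at 67.7% (589 and 522 at 5 d). AT5G48310 stood at 49.7% (932 and 849 at 5 d). AT2G16270 was at 27.6% of its 5 d level (1046 and 1369.6 at 5 d), and at 21.4% without mutant replicate 1. AT4G15830 was the lowest of all at 12.8% of its 5 d level (2753 and 2491 at 5 d). Over the 9 genes the mature mutant level thus ran from 12.8% to 111% of the young mutant level.

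**Figure D2:**
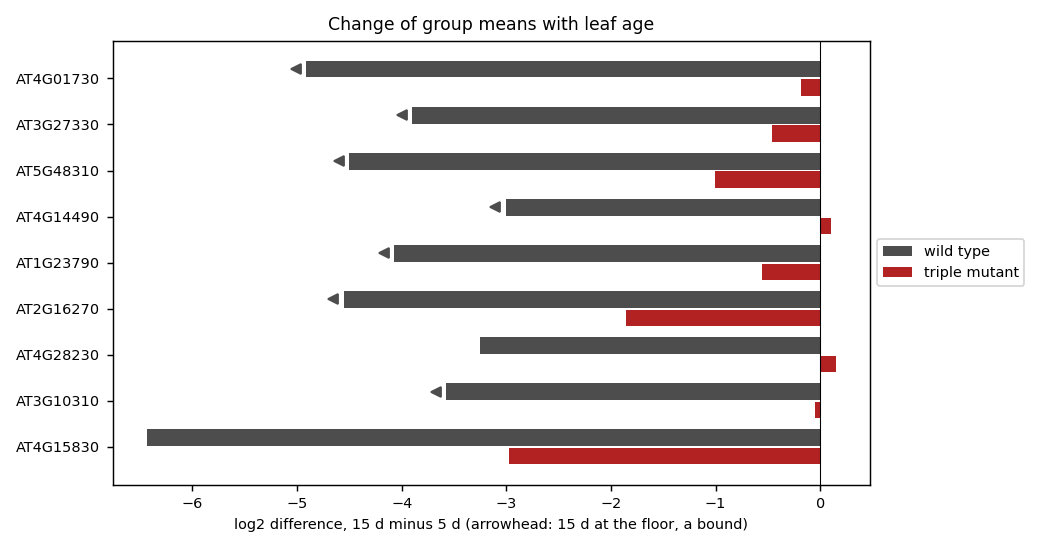
Log2 difference of group means between 15 d and 5 d leaves, 15 d minus 5 d, for each gene in wild type (grey bars) and in the triple mutant (red bars); an arrowhead marks a wild-type bar that is a bound because all 3 arrays at 15 d lay at the floor. Wild-type bars reach from -3.01 to -6.43, and mutant bars lie between 0.15 for AT4G28230 and -2.97 for AT4G15830.

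Young leaves gave the values that the choice of genes did not use. At 5 d none of the 9 genes differed between the triple mutant and wild type in the limma fit over the 10 leaf arrays (adjusted p = 1 for each, and 0 of 9 at an unadjusted p under 0.05). Over all probe sets tested 0.127% were called, 18 of them higher and 3 lower, and 859 of 16558 passed at an unadjusted p under 0.05. The median log2 difference of the 9 genes was 0.18, against -0.00 over all probe sets. With 2 arrays per group the intervals are wide, and the bounds below show which differences they leave room for. The spread in this fit came from all 10 leaf arrays, among them the 15 d arrays that chose the genes. In 7 of the 9 genes all wild-type arrays at 15 d were set to the floor, which adds no spread and can make the intervals too narrow.

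AT4G14490 came nearest to a difference at 5 d, with 278 and 254 in wild type and 387 and 361 in the mutant. Its log2 difference was 0.49, with a 95% interval from -0.03 to 1.02 and an unadjusted p of 0.063 from the limma model. AT2G16270 had the largest estimate, 0.62 (-0.25 to 1.49), from 722 and 836 in wild type and 1046 and 1369.6 in the mutant. AT3G27330 read 542 and 450.0 in wild type and 724 and 644 in the mutant, a log2 difference of 0.47 (-0.17 to 1.10). AT5G48310 read 823 and 683 against 932 and 849, a difference of 0.25 (-0.34 to 0.83). In these 4 genes both mutant arrays lay above both wild-type arrays, an arrangement found in 20% of all probe sets tested.

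AT3G10310 and AT4G15830 were arranged the other way round, with both mutant arrays below both wild-type arrays, as 19.3% of all probe sets were. AT3G10310 read 393 and 396 in wild type and 274 and 384 in the mutant, a log2 difference of -0.28 (-0.90 to 0.34). AT4G15830 read 3198 and 3604 against 2753 and 2491, a difference of -0.37 (-1.15 to 0.40). The arrays of the other 3 genes overlapped. AT4G01730 read 902 and 1102 against 1074 and 1175 (0.17, interval -0.39 to 0.74), and AT4G28230 read 638 and 543 against 630.4 and 705 (0.18, interval -0.78 to 1.14). For AT1G23790, with 617 and 503 against 589 and 522, the estimate was -0.00 (-0.64 to 0.63).

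**Figure D3:**
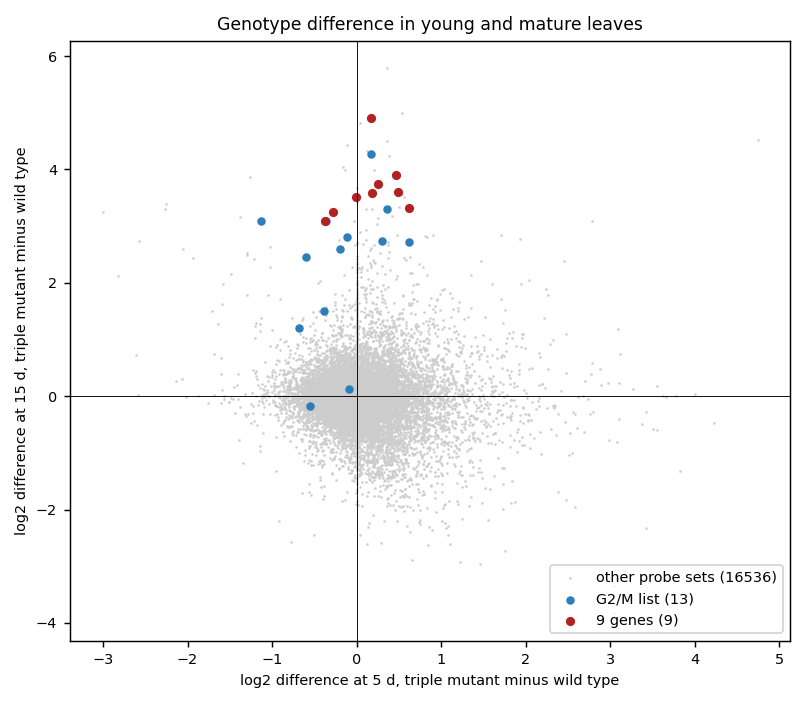
Log2 difference between triple mutant and wild type at 5 d (horizontal axis) and at 15 d (vertical axis) for all probe sets tested in leaves (grey), genes of a G2/M list (blue) and the 9 genes (red). The 9 genes lie between 3.09 and 4.90 at 15 d, the axis on which they were chosen, and between -0.37 and 0.62 at 5 d.

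Seedlings show how the 9 genes stood when other MYB3R genes were lost, singly or together. A whole seedling at 9 d mixes dividing and mature tissue, and all 90 signals of the 9 genes on the 10 seedling arrays lay above the floor. With 1 array per genotype a single genotype has no test, so its ratio to the wild-type array is given as a value. In the 4 single mutants and in myb3r1 myb3r4, none of the 9 genes was 2-fold or more above wild type. The share of all 19626 probe sets that was at least 2-fold higher was 0.907% in myb3r1, 1.49% in myb3r3, 0.571% in myb3r4, 0.861% in myb3r5 and 0.688% in myb3r1 myb3r4.

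In the myb3r3 myb3r5 double mutant 4 of the 9 genes were at least 2-fold above wild type, against 1.52% of all probe sets. These were AT4G01730 (2.21-fold), AT3G10310 (2.21-fold), AT4G14490 (2.17-fold) and AT2G16270 (2.05-fold). The same 4 were at least 2-fold above wild type in myb3r3 myb3r4 myb3r5, where 1.21% of all probe sets were, at 2.12-fold, 2.44-fold, 3.02-fold and 2.25-fold in that order. In myb3r1 myb3r3 myb3r5 the number was 6 of 9 against 1.55%. All 9 genes lay above wild type there, against 45.3% of all probe sets, and their median log2 ratio was 1.63 against 0. In the quadruple mutant it was 7 of 9 against 1.47%. There 8 genes lay above wild type, against 43.7% of all probe sets, with a median of 1.70 against 0. In myb3r4 8 genes lay above wild type too, against 50.9% of all probe sets, with a median of 0.45 against 0.01. The number was 7 in myb3r5, myb3r3 myb3r5 and myb3r3 myb3r4 myb3r5, 6 in myb3r3 and myb3r1 myb3r4, and 4 in myb3r1. The shares of all probe sets were 50.2%, 48.0%, 46.8%, 51.6%, 48.3% and 48.4% in that order. All these ratios share the single wild-type seedling array.

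Of the 10 seedling arrays, the myb3r1 myb3r3 myb3r5 and quadruple mutant arrays were the 2 highest for 8 of the 9 genes, and so they were for 3.2% of all probe sets. AT4G01730 read 199 in wild type, 197 in myb3r1, 278 in myb3r3, 283 in myb3r4, 228 in myb3r5, 259 in myb3r1 myb3r4, 441 in myb3r3 myb3r5 and 422 in myb3r3 myb3r4 myb3r5. It then read 795 in myb3r1 myb3r3 myb3r5 and 801 in the quadruple mutant. The order of this gene thus had 3 levels: 197 to 283 in genotypes that keep MYB3R3 or MYB3R5, 422 and 441 in those that lack both but keep MYB3R1, and 795 and 801 in those that lack all of these. AT3G10310 had the same 3 levels, with 102 in wild type, 102, 132, 147 and 134 in myb3r1, myb3r3, myb3r4 and myb3r5, and 148 in myb3r1 myb3r4. Its next readings were 227 in myb3r3 myb3r5, 249.8 in myb3r3 myb3r4 myb3r5, 392 in myb3r1 myb3r3 myb3r5 and 367 in the quadruple mutant.

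AT2G16270 and AT4G14490 followed that order too. AT2G16270 read 203 in wild type, between 219.7 and 299.5 in the single mutants and myb3r1 myb3r4, 415 in myb3r3 myb3r5, 456 in myb3r3 myb3r4 myb3r5, 626 in myb3r1 myb3r3 myb3r5 and 884 in the quadruple mutant. AT4G14490 read 88.7 in wild type, between 57.7 in myb3r1 and 142 in myb3r3 among the single mutants, 111 in myb3r1 myb3r4 and 192 in myb3r3 myb3r5. It read 268 in myb3r3 myb3r4 myb3r5, 363 in myb3r1 myb3r3 myb3r5 and 292 in the quadruple mutant, so its 2 upper levels lay closer together. AT4G28230 read 301 in wild type, 264 in myb3r1, 449.6 in myb3r3, 245 in myb3r4, 294 in myb3r5 and 189 in myb3r1 myb3r4. It read 525 in myb3r3 myb3r5, 488 in myb3r3 myb3r4 myb3r5, 730.4 in myb3r1 myb3r3 myb3r5 and 648 in the quadruple mutant, and its myb3r3 array, at 1.49-fold of wild type, lay near the arrays that lack both MYB3R3 and MYB3R5.

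AT3G27330 and AT5G48310 had 2 levels in place of 3. AT3G27330 read 135 in wild type, 170.0 in myb3r3 myb3r5 and 204 in myb3r3 myb3r4 myb3r5, within the 119 to 209 of the single mutants and myb3r1 myb3r4, but 526 in myb3r1 myb3r3 myb3r5 and 439 in the quadruple mutant. AT5G48310 read 393 in wild type, 337 in myb3r3 myb3r5 and 302 in myb3r3 myb3r4 myb3r5, but 737 in myb3r1 myb3r3 myb3r5 and 633 in the quadruple mutant. Its single mutants and myb3r1 myb3r4 read from 301 to 409. In both genes the arrays that lack MYB3R3 and MYB3R5 but keep MYB3R1 lay within the range of the single mutants and myb3r1 myb3r4.

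AT1G23790 and AT4G15830 had the weakest patterns in seedlings. AT1G23790 was lowest in wild type at 155, with 256 in myb3r1, 221 in myb3r3, 246 in myb3r4, 231 in myb3r5 and 168 in myb3r1 myb3r4. It read 231 in myb3r3 myb3r5, 203 in myb3r3 myb3r4 myb3r5, 291 in myb3r1 myb3r3 myb3r5 and 377 in the quadruple mutant, so the upper levels stood little above the single mutants. AT4G15830 read 824 in wild type and between 643 in myb3r1 myb3r4 and 1173 in myb3r1 myb3r3 myb3r5. Its quadruple mutant array, at 808, lay just under wild type, and myb3r5 at 948 was the second highest. It was the exception to the order of the other 8 genes.

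**Figure D4:**
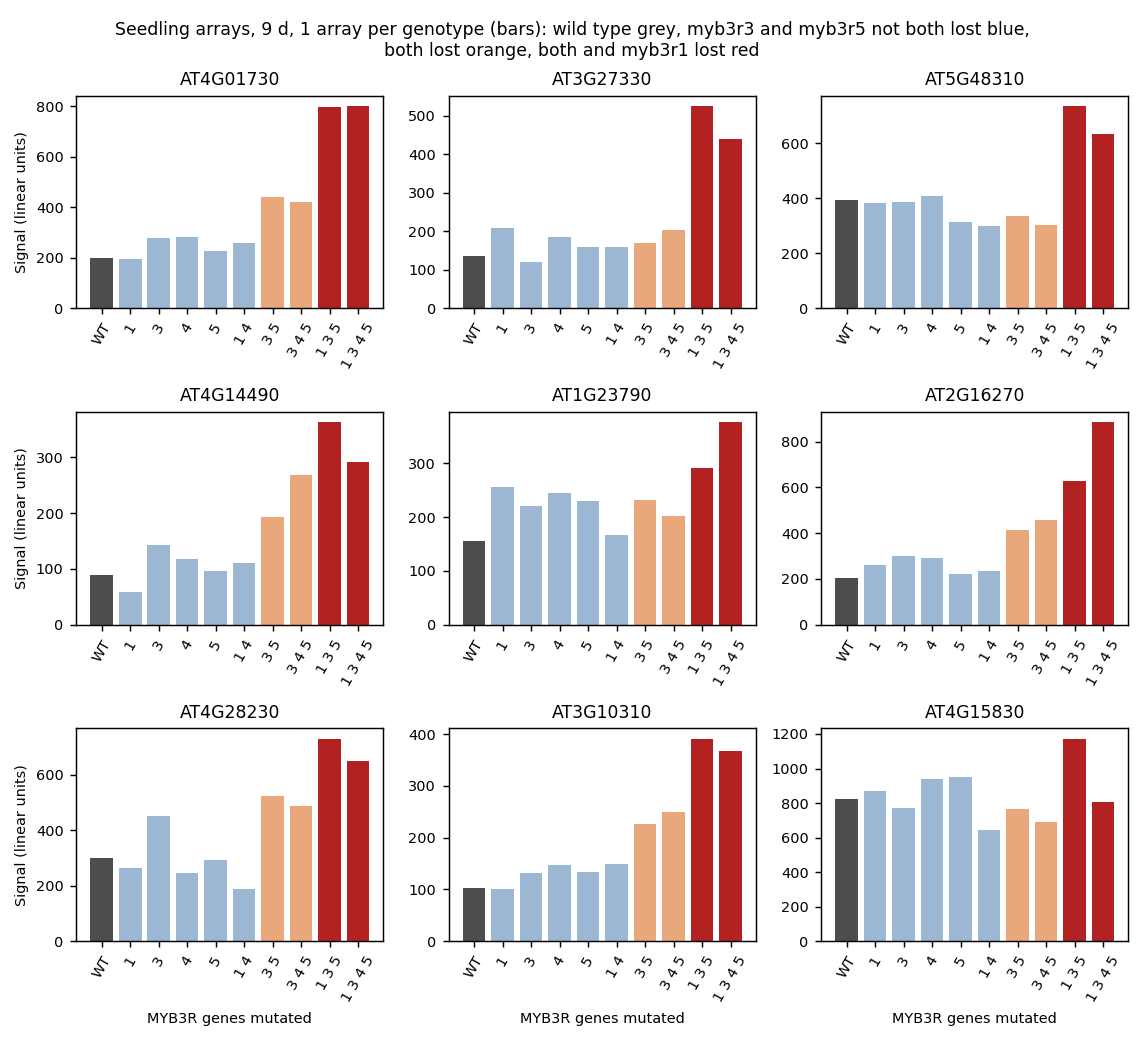
Signal of each gene on the 10 seedling arrays (bars, linear units, 1 array per genotype); the axis names the MYB3R genes mutated, with wild type in grey, genotypes that keep MYB3R3 or MYB3R5 in blue, those that lack both in orange and those that also lack MYB3R1 in red. The red bars are the 2 highest for 8 of the 9 genes and not for AT4G15830, whose bars run from 643 to 1173.

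A limma fit over the 10 seedling arrays had terms for myb3r1, for myb3r4 and for the joint loss of myb3r3 and myb3r5. It called none of the 9 genes for the joint loss. The fit counts the myb3r3 and myb3r5 single mutants as free of the joint loss, so any effect in them enters its spread. For the joint loss it called 0.056% of all probe sets tested, all of them higher. At an unadjusted p under 0.05 passed 13.1% of probe sets, as 6 of the 9 genes did. The estimates of 5 genes lay together above 1 on the log2 scale, each with a 95% interval clear of 0. They were 1.44 for AT4G14490 (adjusted p = 0.11), 1.23 for AT4G01730 (0.085), 1.19 for AT3G10310 (0.076), 1.14 for AT4G28230 (0.092) and 1.12 for AT2G16270 (0.093), with the same test and adjustment for each. These 5 genes were called when no floor was set (adjusted p from 0.011 to 0.017) and when dim probe sets were filtered more strictly (from 0.0090 to 0.014), so their calls depended on these settings. AT4G28230 was also called without the myb3r3 array, at an adjusted p of 0.026.

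For the other 4 genes the joint loss estimates were smaller. AT3G27330 stood at 0.80 (95% interval 0.25 to 1.34, adjusted p = 0.21), AT5G48310 at 0.33 (-0.19 to 0.84), AT1G23790 at 0.32 (-0.16 to 0.80) and AT4G15830 at 0.05 (-0.30 to 0.39). The interval of AT4G15830 thus ended below the lower bound of each of the 5 genes above, which ranged from 0.67 to 0.83. The median over the 9 genes was 1.12, against -0.03 over all probe sets.

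Because AT3G27330 and AT5G48310 were high on the 2 arrays where MYB3R1 was lost as well, a fit chosen after seeing these values set the further loss of myb3r1 apart. Its terms were myb3r4, the joint loss of myb3r3 and myb3r5 with MYB3R1 intact, and the further loss of myb3r1 on top of it. The fit gives the myb3r1 and myb3r1 myb3r4 arrays no term for myb3r1, so any such effect in them enters its spread. It called 0.0153% of all probe sets for the joint loss and 0.0102% for the further loss, and none of the 9 genes for either. The lowest adjusted p among the 9 was 0.20 for the joint loss and 0.22 for the further loss, so what follows is given as estimates with 95% intervals that are not adjusted for the number of tests.

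AT5G48310 had an estimate of -0.16 (-0.49 to 0.16) for the joint loss and 1.10 (0.71 to 1.49) for the further loss. AT3G27330 had 0.22 (-0.28 to 0.72) for the joint loss and 1.37 (0.76 to 1.97) for the further loss. In these 2 genes the interval of the joint loss held 0, and since the fit was chosen for their values on these arrays, the estimates describe the pattern that prompted it. AT4G14490 had 1.17 (0.48 to 1.86) for the joint loss and 0.52 (-0.32 to 1.36) for the further loss, and AT4G28230 had 0.92 (0.43 to 1.41) and 0.44 (-0.15 to 1.04). In these 2 the interval of the further loss held 0.

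AT4G01730 (0.83 and 0.89), AT2G16270 (0.77 and 0.78) and AT3G10310 (0.88 and 0.67) had like estimates for both steps, with intervals clear of 0 in each. AT1G23790 had 0.05 (-0.47 to 0.57) and 0.61 (-0.01 to 1.24), and AT4G15830 had -0.15 (-0.50 to 0.20) and 0.42 (-0.01 to 0.85). In every gene the estimate for the further loss rests on the arrays that prompted the fit, so its direction is not separate evidence. The differences between genes in these estimates were not tested.

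**Figure D5:**
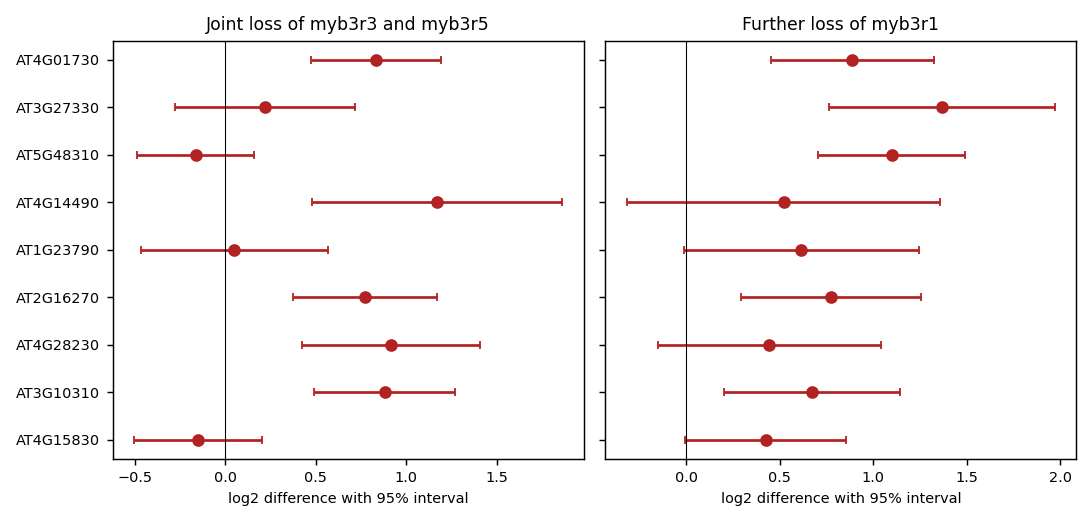
Estimates of the fit over the 10 seedling arrays (log2 difference, points, with 95% intervals not adjusted for the number of tests) for the joint loss of myb3r3 and myb3r5 with MYB3R1 intact (left) and for the further loss of myb3r1 (right). AT3G27330 and AT5G48310 lie near 0 on the left, at 0.22 and -0.16, and have the 2 highest estimates on the right, 1.37 and 1.10.

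Single allele terms, fitted additively for the 4 genes, called none of the 9 genes. Over all probe sets they called 0% for myb3r1, 0.0051% for myb3r3, 0.0153% for myb3r4 and 0% for myb3r5. At an unadjusted p under 0.05 stood 1948 of the 19626 probe sets (9.93%) for myb3r1, 2049 (10.4%) for myb3r3, 1106 (5.64%) for myb3r4 and 1509 (7.69%) for myb3r5. The same threshold was passed by 3 of the 9 genes for myb3r1, 5 for myb3r3, 0 for myb3r4 and 1 for myb3r5. The median estimates of the 9 genes were 0.40, 0.63, 0.10 and 0.38 in that order. The myb3r4 term was the smallest, and its estimates ran from -0.23 for AT4G15830 to 0.43 for AT4G14490.

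Genes of the G2/M phase were read from a list of 39 G2/M genes, of which 13 had a named probe set and were tested. At 15 d 10 of the 13 rose in the triple mutant and none fell, with a median log2 difference of 2.71 against 0 over all probe sets. Without mutant replicate 1 of 15 d it was again 10 of 13, with a median of 2.82, and over all settings run the count lay between 7 and 11. Of all probe sets tested 0.725% were called higher. The list was drawn up with earlier results of these arrays known, so its direction is not independent evidence. AUR2 rose the most, from 22.9 ± 15.5 to 690.3 ± 80.0 (SD, n = 3 each), a log2 difference of 4.28 with an adjusted p of 2.3e-05 in limma. AUR1 rose by 3.29 (adjusted p = 0.0040) and AT1G72250 by 3.09 (adjusted p = 0.00091), both in the same limma fit.

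The list also held genes that did not pass. AUR3, the third Aurora kinase, had a log2 difference of -0.17 at 15 d, with 27.0 ± 19.3 in wild type and 19.2 ± 3.89 in the mutant (SD, n = 3 each), so both groups were under the floor on average. For 3xHMG-box2 it was 1.20 (adjusted p = 0.50, limma) and for AT1G63100 it was 0.12. At 5 d none of the 13 passed and their median was -0.20. For the joint loss in seedlings none passed either, with a median of 0.60, and AUR2 had an estimate of 1.0 (adjusted p = 0.11, limma).

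Genes of DNA replication and chromatin assembly in S phase gave a different reading. Of 20 listed, 3 had a named probe set, and none passed at 15 d. PRL, a subunit of the MCM helicase, read 129.6 ± 7.95 in wild type and 97.7 ± 15.5 in the mutant (SD, n = 3 each), a log2 difference of -0.42. ICU2, the catalytic subunit of DNA polymerase alpha, had -0.34 and HTB1, a histone H2B, had -0.09. All 3 were above the floor in both genotypes, and with 3 genes the list says little about the phase as a whole.

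Markers of other tissues were set beside the 15 d values. None of the 4 photosynthesis genes passed with all arrays (median log2 difference -1.60), while 1 of them was called lower with the replicate block. All 4 were called lower once mutant replicate 1 was left out, but that setting kept wild-type replicate 1, which had the highest photosynthesis sum of its group. Of the root list 4 of 9 genes had a probe set, and EXPA7, EXPA18 and AT1G30870 were under the floor on all wild-type arrays at 15 d and averaged 10.6, 9.18 and 4.79 in the mutant. The remaining root gene, PYK10, a beta-glucosidase of endoplasmic reticulum bodies, read 2694 ± 1052 in wild type and 952 ± 692 in the mutant (SD, n = 3 each; adjusted p = 0.29, limma). Without mutant replicate 1, 1 of the 2 root genes tested, PYK10 and EXPA18, was called lower. CLV3, a peptide of the shoot meristem and the only gene of 7 on its list with a probe set, read 2.09 to 3.88 on the mutant arrays and 3.93 to 16.6 on the wild-type arrays at 15 d, all under the floor.

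Cells of the stomatal lineage keep dividing late in a leaf, so their regulators were read as well. Of 6 listed genes 3 had a probe set, and none passed at 15 d. SPCH, which starts the lineage, averaged 576 in wild type and 537 in the mutant at 5 d, and 7.06 ± 3.43 and 9.29 ± 12.4 at 15 d (SD, n = 3 each). MUTE, which ends the divisions of the precursor cells, averaged 2.24 and 2.35 at 15 d. Both defining early genes were thus under the floor in wild type at 15 d and averaged below it in the mutant. FMA, which acts at the last step, averaged 248 and 240.

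Named genes with the pattern most like the 9 were found by correlating each of 7622 genes with the mean standardised signal of the 9. The arrays used were the 14 that had no part in choosing them, the 10 seedling and the 4 young leaf arrays. Pearson's r was 0.98 for AUR2, 0.98 for AT4G14330, 0.97 for AT5G42700, 0.96 for KINESIN-12B, 0.96 for AT1G72250 and 0.96 for AT5G23910, where KINESIN-12B is a motor protein of the phragmoplast, the structure that builds the new wall at cell division. These values are descriptions over arrays that share tissue and scaling, since young leaves and seedlings differ in level for all these genes. Within the 10 seedling arrays alone r was 0.97 for AUR2, 0.96 for AT4G14330, 0.93 for AT1G72250, 0.91 for AT5G42700, 0.90 for KINESIN-12B and 0.88 for AT5G23910. Those arrays were among the 14 that picked these genes, so this is no separate check. Over all 20 arrays, which include the 15 d arrays that chose the 9 genes and so favour genes high in mature mutant leaves, the 6 highest were AUR2 (0.99), KINESIN-12B (0.98), AT4G17000 (0.98), AT5G51380 (0.97), AT1G72250 (0.97) and Hop3 (0.96), a co-chaperone of heat shock proteins.

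The 9 genes were unlike in how closely each followed the other 8 over the 10 seedling arrays. Pearson's r with the mean of the others was 0.94 for AT4G01730, 0.92 for AT2G16270, 0.90 for AT3G10310 and 0.89 for AT3G27330. It was 0.82 for AT4G28230, 0.81 for AT4G14490, 0.80 for AT5G48310 and 0.76 for AT1G23790. AT4G15830 stood apart at 0.37, the same gene whose mature mutant level was the smallest share of its young level.

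The genes next to the 9 on the chromosomes were read to see whether the difference at 15 d extended along the chromosome. Of the 18 direct neighbours 12 had a named probe set and were tested, and none was called at 15 d. Over all probe sets tested 124 of 16558 were called, so no call among 12 is the usual outcome. Whether the difference extended along the chromosome cannot be read from this count. Their log2 differences ran from -1.06 for AT4G28240 to 1.58 for AT3G10320 (adjusted p = 0.55, limma), with a median of 0.20. WRKY47, which encodes a WRKY transcription factor and lies beside AT4G01730, had a difference of -0.07, the wild-type mean being 392 and the mutant mean 381.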

How the data were processed

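RNA was measured on 20 arrays, 10 of leaves and 10 of seedlings. The deposited intensity values are linear signals, 1 per probe set and array, made by the authors with MAS5, per the submitters' processing notes, which give no version. Each array's mean after trimming 2% at each end was 500.04 to 500.06.

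Signals under 33.1, the median over arrays of the 25th percentile, were raised to it before log2 was taken. Leaf probe sets above the floor on every array of a group (16558) were fitted with a mean per group, and seedling probe sets above it on any array (19626) with allele terms, in limma 3.58.1 (R 4.3.3) with a variance trend. Tests were two-sided and adjusted by Benjamini-Hochberg, and an adjusted p under 0.05 was a call. The fits were tested on simulated data. Figures were drawn with matplotlib 3.10.9.

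The array holds 22810 probe sets: 13513 name a single gene, 503 name several, 8730 have no name and 64 are controls. Names and neighbours came from a TAIR10.1 gene table, which 13436 matched. No coordinates are given, and no sequences either, because no sequence table was used.

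The 9 genes and the lists were chosen with earlier results of these data known. Named beside them were the 3 genes just above and below the last of the 9 at 15 d, the genes that ranked among them, the 6 most alike, the 3 largest calls of a list each way, and neighbours at the ends of the range. Other names were chosen after their values were seen. Same-numbered leaf arrays of 15 d correlated in their deviations from group means (0.73, 0.60 and 0.57). For differently numbered ones the correlation ran from -0.67 to 0.42. The numbers were therefore read as pairing the samples there, though the labels do not give the origin of the replicates. With 2 pairs at 5 d this cannot be judged. The main leaf fit had no term for the pairing, which only the replicate block used. The number of arrays limits the precision.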

Additional observations from a re-analysis of the deposited data

Results flagged for a closer look

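AT3G10310 and AT4G15830 were flagged because their mutant arrays lay on opposite sides of wild type at 5 d and 15 d. At 5 d both triple mutant arrays of AT3G10310 were below both wild-type arrays (log2 difference -0.28), and at 15 d all 3 mutant arrays were above all 3 wild-type arrays. The same held for AT4G15830, with a log2 difference of -0.37 at 5 d. The 15 d side was set by the choice of the genes. The 5 d arrangement was found in 19.3% of all probe sets tested, so it does not set these genes apart. The difference between the ages was not tested, because the 15 d values chose these genes, and neither 5 d difference passed a test on its own.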

How the results depend on the processing

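In leaves, 0 of the 9 genes were called at 5 d under every setting run, while the count over all probe sets moved from 21 to 40 with 2 times the floor, 75 with no filter, 1 with only arrays of that age and 52 with the replicate block, and from 4 to 523 when 1 array was left out. Quantile normalization gave 31 calls, 20 higher and 11 lower. At 15 d the 124 calls became 67 with only arrays of that age, 779 with the replicate block (409 higher, 370 lower), and 72 to 1414 when 1 array was left out; the 9 genes' log2 differences ran from 2.24 with 2 times the floor to 5.85 with no floor. The replicate block changed no call of the 9 genes. AT1G23790 at 5 d turned from -0.00 to 0.0050 with quantile normalization, to 0.14 and 0.08 when wild-type replicate 1 or mutant replicate 2 was left out, and ran from -0.15 to 0.14 over all arrays left out. In seedlings the joint loss of myb3r3 and myb3r5 gave 11 calls, and 7 with 0.5 times the floor, 18 with 2 times the floor, 64 with no floor, 1 with no filter, 98 with the stricter filter, 5 with no variance trend, 3 with a separate term for the further loss of myb3r1, and 0 to 43 when 1 array was left out. Of the 9 genes it called 0, but 5 with no floor, 5 with the stricter filter, and 0 to 1 when 1 array was left out. AT4G15830 turned to -0.08 without the myb3r1 myb3r4 array and to -0.11 without the myb3r1 myb3r3 myb3r5 array, within -0.11 to 0.17 over all arrays left out. The myb3r1 and myb3r4 terms gave 3 calls, and 7 with 0.5 times the floor, 6 with 2 times the floor, 13 with no floor, 1 with no filter, 13 with the stricter filter and 0 to 4 when 1 array was left out. The myb3r3 and myb3r5 terms gave 1 call, and 43 with no floor, 0 with no filter, 44 with the stricter filter, 0 with no variance trend and 0 to 46 when 1 array was left out. Over the 4 allele terms 0 of the 9 genes were called, but 1 with no floor and 1 with the stricter filter. The cause of these shifts was not tested. No paired analysis was possible in seedlings because each genotype has 1 array.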
